A study of Mus musculus with 2 samples.

Results

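The 8 genes described here belong to the extracellular matrix, namely 7 small leucine-rich proteoglycans (Dcn, Bgn, Lum, Fmod, Aspn, Ogn and Prelp) and the large proteoglycan versican (Vcan). They were found by their symbols among the 32285 genes of the mouse reference, and all 8 were present. Unique molecular identifiers (UMIs), each standing for 1 captured transcript, were summed over classes of cells in 2 single-cell RNA libraries. Cells were classed by marker genes, and no member of the set took part in the classing.

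Each library came from 4 omental tumors that were pooled before capture, grown in 12 to 16 week old female C57BL/6J mice and taken on day 10 after intraperitoneal grafting. The grafted KPCA line is a mouse model of high-grade serous ovarian carcinoma derived from fallopian tube epithelium, with Trp53 R172H and overexpressed Ccne1 and Akt2. In both groups the grafted cells also lacked Fst, which encodes follistatin, whereas the host cells kept it. KPCA.FSTKO carried nothing further, and KPCA.FSTKO_hFSTL3 was 1 stable clone of it, transfected with a plasmid for human FSTL3 and selected with geneticin. The question of the comparison was what FSTL3 made by cancer cells does to the tumor microenvironment. With 1 library per genotype, differences between genotypes, clones, mice and captures cannot be told apart, and no test was possible. All intervals below are 95% intervals that cover counting error only.

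The mouse reference held no human FSTL3, so the transgene was not measured. Fst, read at its 3′ end and therefore no check of the deletion, gave 495 UMIs in the cancer-gated cells of KPCA.FSTKO (5.18 CPM, that is UMIs scaled to 1000000 UMIs of the class) and 99 in those of KPCA.FSTKO_hFSTL3 (9.61 CPM). In stromal-gated cells its level was 119 and 176 CPM, respectively.

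Small leucine-rich proteoglycans are secreted proteins built on leucine-rich repeats, and several of them bind fibrillar collagen and shape how fibrils grow. Decorin and biglycan carry chondroitin or dermatan sulfate chains, lumican and fibromodulin carry keratan sulfate, and asporin carries an aspartate-rich stretch in place of a chain. Versican binds hyaluronan and is made by stromal cells and by myeloid cells. In tumors this family marks fibroblast-rich matrix.

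After the study's filter on mitochondrial share and gene number, 6777 of 7582 barcodes were kept in KPCA.FSTKO (142160061 UMIs) and 4041 of 4244 in KPCA.FSTKO_hFSTL3 (69751304 UMIs), and 10 barcodes occurred in both. The classes are called gated, after the marker genes that put a cell in them. KPCA.FSTKO held 209 fibroblast-gated, 44 myofibroblast-gated, 31 mesothelial-gated, 35 pericyte-gated, 2861 cancer-gated and 854 macrophage-gated cells, and KPCA.FSTKO_hFSTL3 held 27, 20, 13, 12, 268 and 157. A further 111 and 6 cells passed a matrix list of 10 genes (Col1a1, Col1a2, Col3a1, Col5a1, Col6a3, Postn, Sparcl1, Thbs2, Fbn1 and Adamts2). They passed no fibroblast, myofibroblast, mesothelial or pericyte gate, and are called matrix-gated. In KPCA.FSTKO the list summed to 12569 CPM in matrix-gated cells. That was lower than the 27834 in fibroblast-gated, 26261 in myofibroblast-gated and 15711 in mesothelial-gated cells. Stromal-gated cells are the fibroblast-, myofibroblast-, matrix- and mesothelial-gated cells together with 4 tied cells (399 and 66 cells). The matrix-gated cells of KPCA.FSTKO had none of their own markers among their 10 leading genes, which included Calca, Calcb, Cxcl13 and Wt1os. In KPCA.FSTKO_hFSTL3 the fibroblast-gated and cancer-gated cells had no listed marker among their 10 leading genes, and the mesothelial-gated cells had only Nkain4. Its 6 matrix-gated cells also had none of their own, and were led by Cma1 and Hdc, which are known from mast cells. The labels call the cells fallopian tube epithelial, yet Epcam stood at 5.80 CPM in the cancer-gated cells of KPCA.FSTKO and at 0 UMIs in those of KPCA.FSTKO_hFSTL3, with Pax8 at 9.87 and 31.3.

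KPCA.FSTKO_hFSTL3 stood apart in a second way. In this library 2960 barcodes (73.2%) reached the cut for at least 4 of 5 unrelated lists at once, among them pancreatic acinar genes. These are called mixed-profile barcodes. The cut for a list was 0.5 times its summed share in the same library, so the 2 libraries had different cuts. KPCA.FSTKO had 159 mixed-profile barcodes (2.35%). They were deep in KPCA.FSTKO_hFSTL3 (median 16048 UMIs, 11.8% mitochondrial) and shallow in KPCA.FSTKO (median 718 UMIs). All 23 acinar genes were found in the stromal-gated cells of both libraries, summing to 151 CPM in KPCA.FSTKO and 1363 in KPCA.FSTKO_hFSTL3. In cancer-gated cells the sums were 56.8 and 1782, with Ctrb1 and Prss2, respectively, as the most abundant gene. The part of this RNA in the differences between libraries was not tested.

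Dcn, which encodes decorin, was the most abundant member in mesothelial-gated cells, and Bgn, which encodes biglycan, was at its highest in contractile and fibroblast classes. Levels are given in CPM. Because the kit tags transcripts at the 3′ end, these levels were compared between genes without scaling to gene length. Whether they depended on gene length, which ran from 7576 bases for Lum to 87198 for Vcan, was not tested. In mesothelial-gated cells Dcn stood at 4043 (3900 to 4189) in KPCA.FSTKO and at 5657 (5424 to 5898) in KPCA.FSTKO_hFSTL3, where it ranked 20th and 13th of all genes detected. Fibroblast-gated cells followed with 2536 (2488 to 2584) and 2998 (2856 to 3145). Matrix-gated cells had 1894 and 2467, and myofibroblast-gated cells 1556 and 1222. In pericyte-gated cells the Dcn level was only 218 (184 to 257) and 205 (158 to 263). Cancer-gated cells had 25.7 and 29.1, and macrophage-gated cells 6.54 and 6.59. The order of these classes from mesothelial to macrophage was therefore the same in both libraries. The monocyte gate, with 1 cell in KPCA.FSTKO_hFSTL3, is left out of this order. Among the stromal classes only fibroblast and matrix had overlapping intervals, in KPCA.FSTKO_hFSTL3.

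Single cells varied widely within a class. Among the 209 fibroblast-gated cells of KPCA.FSTKO, the Dcn level per cell ran from 58.4 to 17977 with a median of 2188, and every one of them held a Dcn UMI. The 31 mesothelial-gated cells ran from 962 to 26600 with a median of 3458. In the 35 pericyte-gated cells, by contrast, the median was 0, and 20% held a Dcn UMI. With 1 more marker required of a class, the Dcn ratio of pericyte-gated over stromal-gated cells went from 0.0898 to 0.00319 in KPCA.FSTKO.

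Bgn followed a different order. In KPCA.FSTKO its level was 2526 (2478 to 2575) in fibroblast-gated and 2460 (2361 to 2562) in myofibroblast-gated cells, whose intervals overlapped. It was 1565 in mesothelial-gated, 1539 (1446 to 1636) in pericyte-gated and 830 in matrix-gated cells. In KPCA.FSTKO_hFSTL3 the pericyte-gated cells stood first with 2768 (2583 to 2962), overlapping the 2600 of myofibroblast-gated cells, ahead of 1985 in fibroblast-gated and 1431 in mesothelial-gated cells. Endothelial-gated cells had 59.8 and 115, cancer-gated cells 54.0 and 34.4, and macrophage-gated cells 8.67 and 10.1. Pericyte-gated cells thus had a high biglycan level beside a low decorin level in both libraries, and 97.1% and 100% of them held a Bgn UMI.

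**Figure D1:**
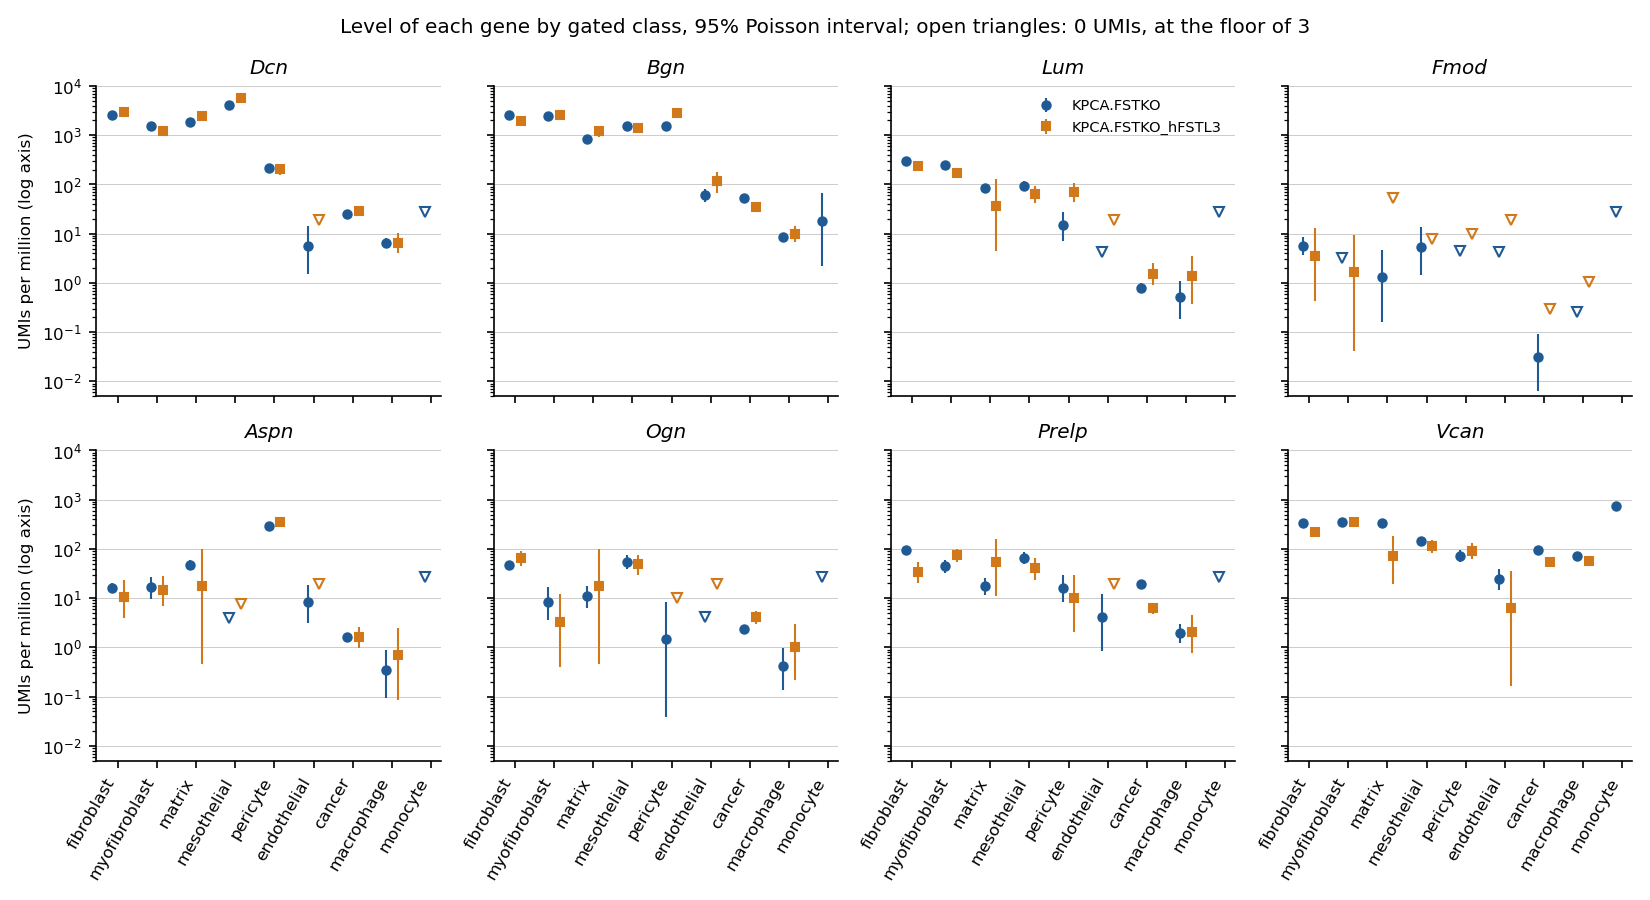
Level of each gene (CPM, log axis) in 9 gated classes of KPCA.FSTKO (blue circles) and KPCA.FSTKO_hFSTL3 (orange squares), with 95% Poisson intervals for counting error. Open triangles mark classes with 0 UMIs, drawn at the level that 3 UMIs would give, and the 1 monocyte-gated cell of KPCA.FSTKO_hFSTL3 is left out. Aspn is highest in pericyte-gated cells, Dcn in mesothelial-gated cells, and Vcan in the monocyte-gated cells of KPCA.FSTKO.

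The ratio of Bgn to Dcn UMIs ordered the stromal classes in the same way in both libraries. It was 0.387 (0.361 to 0.414) in the mesothelial-gated cells of KPCA.FSTKO and 0.253 (0.230 to 0.278) in those of KPCA.FSTKO_hFSTL3. Fibroblast-gated cells had 0.996 (0.970 to 1.02) and 0.662 (0.613 to 0.715), and myofibroblast-gated cells 1.58 (1.48 to 1.69) and 2.13 (1.95 to 2.32). The ratio reached 7.05 (5.92 to 8.44) and 13.5 (10.4 to 17.7) in pericyte-gated cells, where 7 of 35 and 2 of 12 cells held all the Dcn UMIs. With 1 more marker required, the pericyte-gated cells of KPCA.FSTKO held 658 Bgn and 5 Dcn UMIs, in place of 1029 and 146, so the size of their ratio depended on the gate. Within a class the intervals of the 2 libraries did not overlap for the mesothelial, fibroblast, myofibroblast and cancer gates, nor for the pericyte gate as reported. The mixed-profile barcodes of KPCA.FSTKO_hFSTL3 had 0.989 (0.962 to 1.02).

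**Figure D2:**
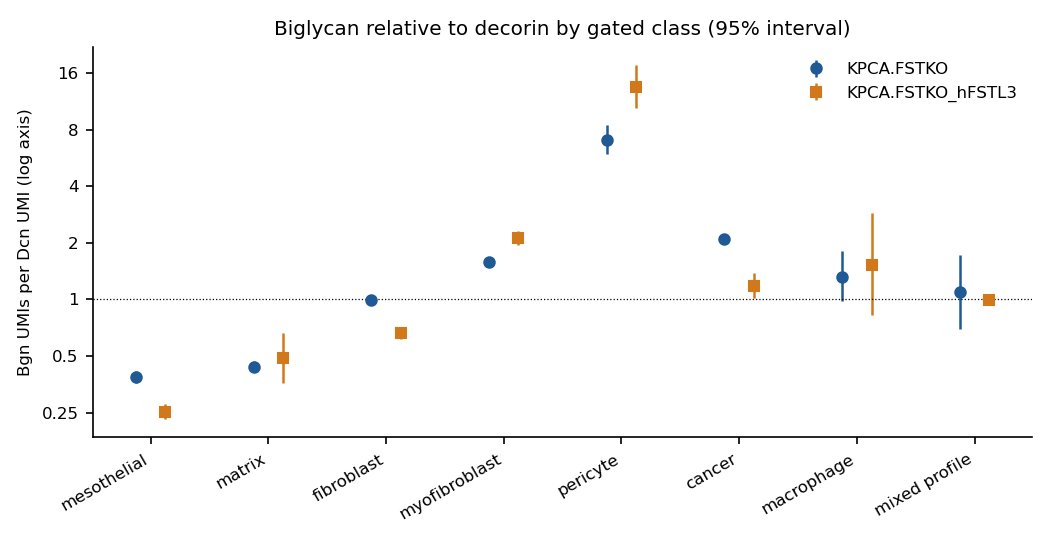
Bgn UMIs per Dcn UMI (log axis) in 8 classes of both libraries, with 95% intervals and a dotted line at 1. The ratio climbs from 0.387 and 0.253 in mesothelial-gated to 7.05 and 13.5 in pericyte-gated cells, and lies near 1 in the mixed-profile barcodes.

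Lum, which encodes lumican, was a fibroblast and myofibroblast transcript in these tumors. Its level in KPCA.FSTKO was 305 (289 to 322) in fibroblast-gated, 248 (217 to 282) in myofibroblast-gated, 93.4 in mesothelial-gated and 86.7 in matrix-gated cells. In KPCA.FSTKO_hFSTL3 the same classes had 233 (195 to 277), 168 (137 to 204), 64.1 and 36.0, the last from 2 UMIs. Pericyte-gated cells of KPCA.FSTKO had 15.0 (7.17 to 27.5). Those of KPCA.FSTKO_hFSTL3 had 69.6 (43.1 to 106), after myofibroblast-gated cells in the order of levels, and overlapped mesothelial-gated and matrix-gated cells. Lum was sparse per cell: 52.2% of the fibroblast-gated cells of KPCA.FSTKO held a UMI, and the 5% of cells with most Lum held 31.6% of it. Cancer-gated cells had 0.795 and 1.55, overlapping macrophage-gated cells at 0.510 and 1.39. Fmod, which encodes fibromodulin, was near absent, with 36 UMIs in all kept barcodes of KPCA.FSTKO, 24 of them in fibroblast-gated cells, and 39 UMIs in KPCA.FSTKO_hFSTL3, 31 of them in mixed-profile barcodes. No ratio is given for Fmod, since it never reached the 100 UMIs required.

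Aspn and Ogn, which encode asporin and osteoglycin, lie 40480 bases apart on the same strand of chromosome 13 and were at their highest in different classes. Aspn spans 49544443 to 49567565 and Ogn 49608046 to 49624501 (GRCm38), with Omd, another family member, in the gap between them. Aspn was a pericyte transcript, at 293 (253 to 337) in the pericyte-gated cells of KPCA.FSTKO and 345 (282 to 418) in those of KPCA.FSTKO_hFSTL3. It was 46.9 and 18.0 in matrix-gated, 16.3 and 10.8 in fibroblast-gated and 16.9 and 14.9 in myofibroblast-gated cells. The mesothelial-gated cells had 0 Aspn UMIs in both libraries, against a level of 4.00 or 7.69 that 3 UMIs would give. Aspn was found in 88.6% and 100% of pericyte-gated cells. Pericyte-gated over stromal-gated cells, the ratio was 14.1 (11.3 to 17.5) and 34.7 (20.4 to 62.9). Over the alternatives these ratios ran from 7.76 to 48.5 and from 18.1 to 148.

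Ogn had its high levels elsewhere. Its level was 54.7 (39.2 to 74.2) and 48.7 (29.3 to 76.1) in mesothelial-gated and 47.2 (40.8 to 54.3) and 64.6 (45.2 to 89.4) in fibroblast-gated cells, overlapping in both libraries. Myofibroblast-gated cells had 8.47 and 3.3. Pericyte-gated cells had 1 Ogn UMI in KPCA.FSTKO and 0 in KPCA.FSTKO_hFSTL3. Omd between them gave 5 UMIs in the stromal-gated cells of KPCA.FSTKO and 2 in those of KPCA.FSTKO_hFSTL3, with 0 in pericyte-gated cells. Ecm2, 11653 bases from Aspn, was also higher in pericyte-gated cells, with 15.0 (7.17 to 27.5) against 2.94 in stromal-gated cells of KPCA.FSTKO and 23.2 against 1.24 in KPCA.FSTKO_hFSTL3, from 10 and 7 UMIs in pericyte-gated cells.

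Because these neighbors differ so much by class, the 250 bases before the start of each are shown, from the RefSeq promoter table (GRCm38.p6, plus strand, 5′ to 3′), which held 6 of the 8 members. The Aspn stretch is chr13:49544193-49544442 and the Ogn stretch is chr13:49607765-49608014. Capitals mark matches, on either strand, to 5 motifs, which are the TATA box TATAAA, the box CCAAT, the SMAD element CAGAC, the AP-1 site TGANTCA and the CArG box.
Aspn: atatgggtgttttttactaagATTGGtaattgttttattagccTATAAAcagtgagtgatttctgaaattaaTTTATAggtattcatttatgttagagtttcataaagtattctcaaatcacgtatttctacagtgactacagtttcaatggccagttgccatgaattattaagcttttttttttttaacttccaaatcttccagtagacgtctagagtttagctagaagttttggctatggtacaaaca
Ogn: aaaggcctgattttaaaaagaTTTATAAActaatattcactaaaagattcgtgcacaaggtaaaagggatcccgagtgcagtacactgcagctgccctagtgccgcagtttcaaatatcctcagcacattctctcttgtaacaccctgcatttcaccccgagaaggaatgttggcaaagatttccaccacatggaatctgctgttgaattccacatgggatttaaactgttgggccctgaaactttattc
Each stretch had 2 matches to the TATA box, overlapping each other in Ogn, and Aspn had 1 match to the CCAAT box. Of all 32851 promoters of that length, 12.4% held a TATA box and 33.8% a CCAAT box, while 42.2% held a SMAD element, 6.75% an AP-1 site and 1.47% a CArG box. Neither stretch held any of the last 3, which says only that these letters are not in this window. The GC share was 30.0% for Aspn and 42% for Ogn, against a median of 52.4% for all promoters. Bgn (64.4%), Vcan (62.4%) and Prelp (55.6%) lay above that median, and Fmod (51.2%) lay just under it.

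Prelp, which encodes a heparin-binding member of the family, had the smallest gap between stromal-gated and cancer-gated cells of the 6 small proteoglycans among the members counted in KPCA.FSTKO. With cell classes taken from clusters, Aspn had a smaller gap there (2.82-fold) than Prelp (3.15-fold). Fibroblast-gated cells of KPCA.FSTKO had 93.4 (84.4 to 103), mesothelial-gated cells 65.4 and myofibroblast-gated cells 44.5 (32.1 to 60.1). Matrix-gated cells had 17.6 (11.6 to 25.6) and pericyte-gated cells 16.4 (8.21 to 29.4), which overlapped the cancer-gated level. In KPCA.FSTKO_hFSTL3 the fibroblast-gated cells had 34.1 (20.5 to 53.2) from 19 UMIs and the myofibroblast-gated cells 74.3 (54.2 to 99.4), so that the order of these 2 classes was not the same. Cancer-gated cells had 19.4 (18.5 to 20.3) and 6.31 (4.87 to 8.04), and macrophage-gated cells 1.95 and 2.08. Of all Prelp UMIs of KPCA.FSTKO, 56.7% lay in cancer-gated cells and 15.7% in stromal-gated cells.

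Vcan, which encodes versican, was the member most widely spread over cell classes. In KPCA.FSTKO its level was 352 (315 to 392) in myofibroblast-gated, 333 in matrix-gated and 333 in fibroblast-gated cells, which overlapped, and 144 (118 to 174) in mesothelial-gated cells. In KPCA.FSTKO_hFSTL3 the values were 347 (301 to 397), 72.0 (4 UMIs), 217 (180 to 259) and 115 (84.2 to 154). Pericyte-gated cells had 73.3 and 92.8. Cancer-gated cells had 93.9 (92.0 to 95.9) and 53.8 (49.4 to 58.4), and 68.7% and 56.0% of them held a UMI. Macrophage-gated cells had 72.8 (68.0 to 77.9) and 57.3 (48.9 to 66.7). The highest level of all belonged to the 12 monocyte-gated cells of KPCA.FSTKO, at 737 (585 to 916) from 81 UMIs, which is 10.1 times (7.95 to 12.7) the macrophage-gated level. The lymphocyte-gated cells of KPCA.FSTKO, which should make little versican, had 14.6 (6.30 to 28.7). The 3′ tags do not tell the splice forms of Vcan apart, and GENCODE lists 8 coding transcripts for it.

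Ordering stromal-gated cells by how many of 10 myofibroblast markers were raised in a cell gave opposite differences for decorin and biglycan between the first and the last bin. A marker counted as raised from 2 UMIs and 3 times its pooled level in KPCA.FSTKO. At 0 to 1, 2 to 3, 4 to 5 and 6 or more raised markers, the Dcn level in KPCA.FSTKO was 2999, 2328, 2072 and 1470, and in KPCA.FSTKO_hFSTL3 it was 5603, 2824, 2257 and 1091. Bgn went from 1345 to 2052, 3065 and 2729 in KPCA.FSTKO, and from 1214 to 1710, 2133 and 3001 in KPCA.FSTKO_hFSTL3. Ogn was 52.8 (44.4 to 62.5) at 0 to 1 markers and 13.6 (6.22 to 25.8) at 6 or more in KPCA.FSTKO, and 77.3 (53.8 to 107) and 4.06 (0.491 to 14.7) in KPCA.FSTKO_hFSTL3. The KPCA.FSTKO bins held 173, 127, 73 and 26 cells, and the KPCA.FSTKO_hFSTL3 bins 26, 14, 11 and 15, so that 3 of the latter had under 20 cells. Depth moved with the bins, from a median of 13843 to 25781 UMIs per cell in KPCA.FSTKO, and its part in these courses was not tested.

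Along 12 fibroblast markers, Bgn and Prelp were higher from bin to bin in KPCA.FSTKO, Lum and Ogn were highest in the last bin, and Dcn took a different course in each library. At 0 to 1, 2 to 3, 4 to 5 and 6 or more raised fibroblast markers (40, 94, 129 and 136 cells) Bgn was 629, 993, 1815 and 3002. Dcn was 1545, 1965, 2654 and 2589, with overlapping intervals in the last pair of bins. Prelp was 11.8, 21.9, 64.0 and 101, where only the intervals of the first pair of bins overlapped. Lum was 4.73 (0.573 to 17.1), 124, 137 and 393 (371 to 415). Ogn was 14.2, 11.6, 16.2 and 63.8 (55.3 to 73.3). Vcan went another way, with 419, 273, 291 and 349. The median depth was 7969 UMIs per cell in the first and 21222 in the last of these bins. In KPCA.FSTKO_hFSTL3, where the first bin held 1 cell, Lum was 55.8, 123 and 232 in the others and Ogn 20.9, 29.1 and 47.5, from 13, 25 and 27 cells, with overlapping Ogn intervals. Dcn there was 3002, 4016 and 2097 (1993 to 2204), lowest in the last bin.

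Among macrophage-gated and monocyte-gated cells, Vcan was higher at 3 or more raised monocyte markers, of 6, than at 0 to 2. The monocyte gate itself required 3 raised monocyte markers. All 12 monocyte-gated cells of KPCA.FSTKO therefore lie in the last bin, which in part restates their Vcan level. The level at 0, 1, 2 and 3 or more raised markers was 36.5 (30.8 to 42.9), 87.8, 77.1 and 297 (255 to 343) in KPCA.FSTKO, over 329, 330, 163 and 44 cells, with overlapping intervals at 1 and 2. In KPCA.FSTKO_hFSTL3 it was 23.2 (14.4 to 35.5), 47.5, 70.8 and 365 (262 to 495), the last from 8 cells. The step to 3 or more markers exceeded the intervals in both libraries. Dcn in the same KPCA.FSTKO cells was 7.99 at 0 and 5.45 at 2 raised markers.

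**Figure D3:**
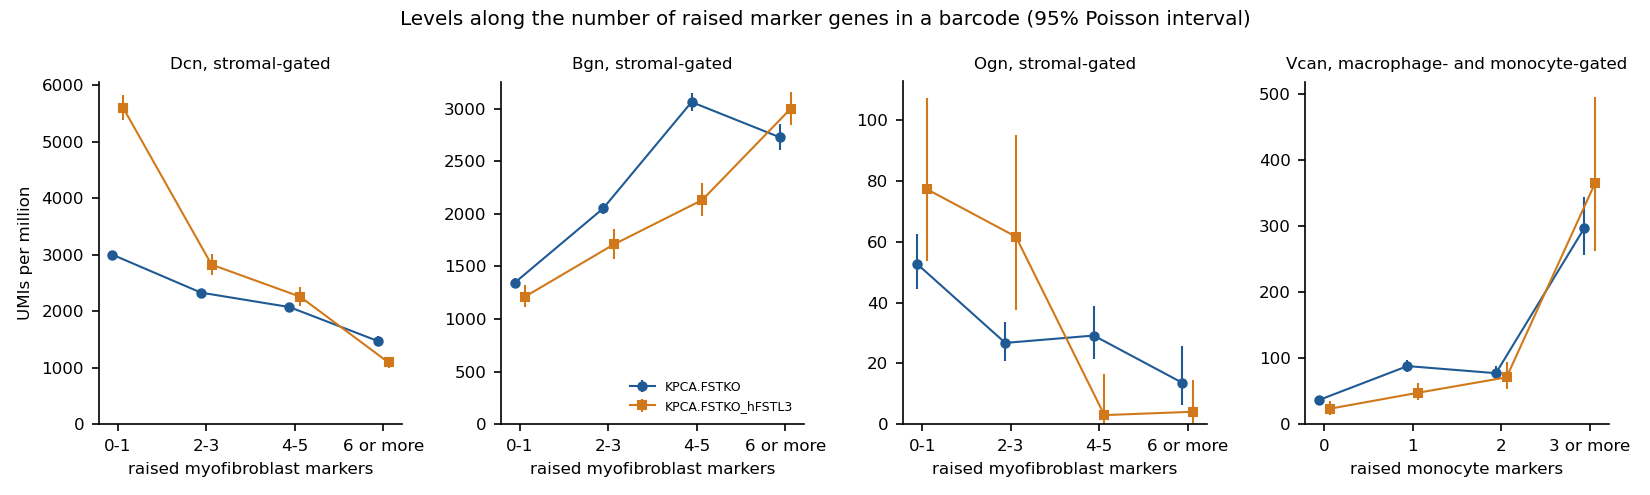
Levels (CPM, linear axes from 0) of Dcn, Bgn and Ogn in stromal-gated cells by number of raised myofibroblast markers, and of Vcan in macrophage- and monocyte-gated cells by number of raised monocyte markers, with 95% Poisson intervals. In KPCA.FSTKO (blue) and KPCA.FSTKO_hFSTL3 (orange), Dcn and Ogn are lower and Bgn is higher at 6 or more raised myofibroblast markers than at 0 to 1, with the highest Bgn level of KPCA.FSTKO at 4 to 5, and Vcan reaches 297 and 365 at 3 or more monocyte markers.

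Set against cancer-gated cells, each member with enough UMIs was higher in stromal-gated cells. A gene was counted when the 2 classes held at least 100 UMIs together, and called higher from a ratio of 2. All 7 members counted in KPCA.FSTKO were called higher, where 14.4% of 13100 genes were. In KPCA.FSTKO_hFSTL3 it was all 6 counted, against 11.4% of 9140 genes, with Fmod and Aspn under the minimum. The median log2 ratio of the members was 3.87 and 4.52, and that of all genes -0.13 and -0.18. Lum had the widest gap in KPCA.FSTKO, 294-fold (234 to 375), and 104-fold in KPCA.FSTKO_hFSTL3. Its cancer-gated level overlapped the macrophage-gated one in both libraries, so these Lum folds are not exact. Dcn stood 94.6-fold (90.7 to 98.7) and 102-fold higher, and Bgn 38.6-fold and 59.7-fold. Ogn had 14.7-fold and 8.85-fold, and Aspn 12.8-fold in KPCA.FSTKO. Prelp had 3.53-fold and 8.18-fold and Vcan 3.39-fold and 4.39-fold. The values of Dcn, Bgn and Lum moved past their counting intervals under several alternatives. Over all that were run Dcn ran from 66.5 to 336 in KPCA.FSTKO and from 53.5 to 471 in KPCA.FSTKO_hFSTL3, Bgn from 33.2 to 141 and from 37.9 to 183, and Lum from 98.5 to 819 and from 35.3 to 969. Aspn came down to 2.82 in KPCA.FSTKO with cell classes taken from clusters, and no member came under 2.

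The cancer-gated signal was concentrated for decorin and biglycan and broad for versican. In KPCA.FSTKO, 5% of cancer-gated cells held 77.4% of the Dcn and 76.6% of the Bgn UMIs of that class, but 28.7% of the Vcan UMIs. Cancer-gated cells with no raised matrix marker (2589 of 2861) had a Dcn level of 18.8 (17.9 to 19.7), those with 1 had 70.3, and those with 2 to 3 had 226 (205 to 249). The matching Bgn levels were 50.1, 89.3 and 140 (123 to 158), a smaller rise than that of Dcn. The Vcan levels were 83.1 (81.2 to 85.1), 221 and 234, and the Prelp levels 17.5, 41.2 and 44.1. In KPCA.FSTKO_hFSTL3 Dcn went from 19.9 to 43.2 and 190, the last from 13 cells. Bgn went from 22.3 to 52.3 and 249 there, and Vcan from 52.2 to 56.3 and 80.6.

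To compare shares of cells at equal depth, each cell was thinned to 1000 UMIs. In the stromal-gated cells of KPCA.FSTKO, 68.4% (63.6 to 73.0) then held a Dcn UMI and 69.2% a Bgn UMI, against 0.470% and 1.06% of macrophage-gated cells, which should make neither. The unthinned shares were 92.7% and 91.0% in stromal-gated and 8.43% and 11.4% in macrophage-gated cells, at median depths of 17314 and 13038 UMIs. Lum was held by 16.5%, Vcan by 28.6%, Prelp by 5.76%, Ogn by 4.26% and Aspn by 1.75% of the thinned stromal-gated cells. In thinned cancer-gated cells Vcan was held by 8.49% (7.5 to 9.58), Bgn by 4.44%, Prelp by 2.34% and Dcn by 2.31%, each above the macrophage-gated share. For Vcan that share was 5.88% (4.39 to 7.67), an interval that overlaps the cancer-gated one, and it is not taken as background. Lum (0.0350%), Aspn (0.315%) and Ogn (0.105%) in thinned cancer-gated cells lay at or under the macrophage-gated share of 0.235% for Lum, or the 0.353% that 0 of 851 cells allows for Aspn and Ogn, and could not be told from background at this depth. Unthinned and summed over the cells of KPCA.FSTKO, Aspn was 1.63 (1.39 to 1.91) CPM in cancer-gated and 0.340 (0.0926 to 0.870) in macrophage-gated cells, Ogn 2.40 (2.10 to 2.73) and 0.425 (0.138 to 0.992), without overlap, while the Lum intervals overlapped. In KPCA.FSTKO_hFSTL3 the thinned stromal-gated shares were 75.4% for Dcn, 80.0% for Bgn, 21.5% for Lum and 10.8% for Vcan, with 1.28%, 1.92%, 0 of 156 cells (up to 1.92%) and 3.85% in macrophage-gated cells. Counting all 8 genes, a thinned fibroblast-gated cell of KPCA.FSTKO held 2.28 of them on average, a cancer-gated cell 0.181 and a macrophage-gated cell 0.0787.

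Where a member's UMIs lay depended on the library. In KPCA.FSTKO the stromal-gated cells, 5.89% of all kept, held 70.7% of Dcn, 62.5% of Bgn and 86.3% of Lum UMIs but 15.0% of Vcan UMIs, of which 56.3% lay in cancer-gated cells. Aspn was shared among pericyte-gated (29.3%), cancer-gated (23.4%) and stromal-gated cells (23.4%). In KPCA.FSTKO_hFSTL3 the mixed-profile barcodes held 65.8% of Dcn, 68.3% of Bgn, 74.6% of Lum and 55.6% of Vcan UMIs, and the stromal-gated cells 29.4%, 21.5%, 21.0% and 13.8%. The mixed-profile barcodes had 207 (203 to 211) CPM of Dcn and 205 CPM of Bgn, which lay between the cancer-gated and stromal-gated levels, and the stromal-gated level of Dcn was 14.3 times (13.8 to 14.8) as high. For Vcan they lay below both, at 29.8 (28.3 to 31.3) against 53.8 in cancer-gated cells. Over all kept barcodes Dcn was 232 in KPCA.FSTKO_hFSTL3 and 181 in KPCA.FSTKO, although stromal-gated cells were 1.63% of the former.

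**Figure D4:**
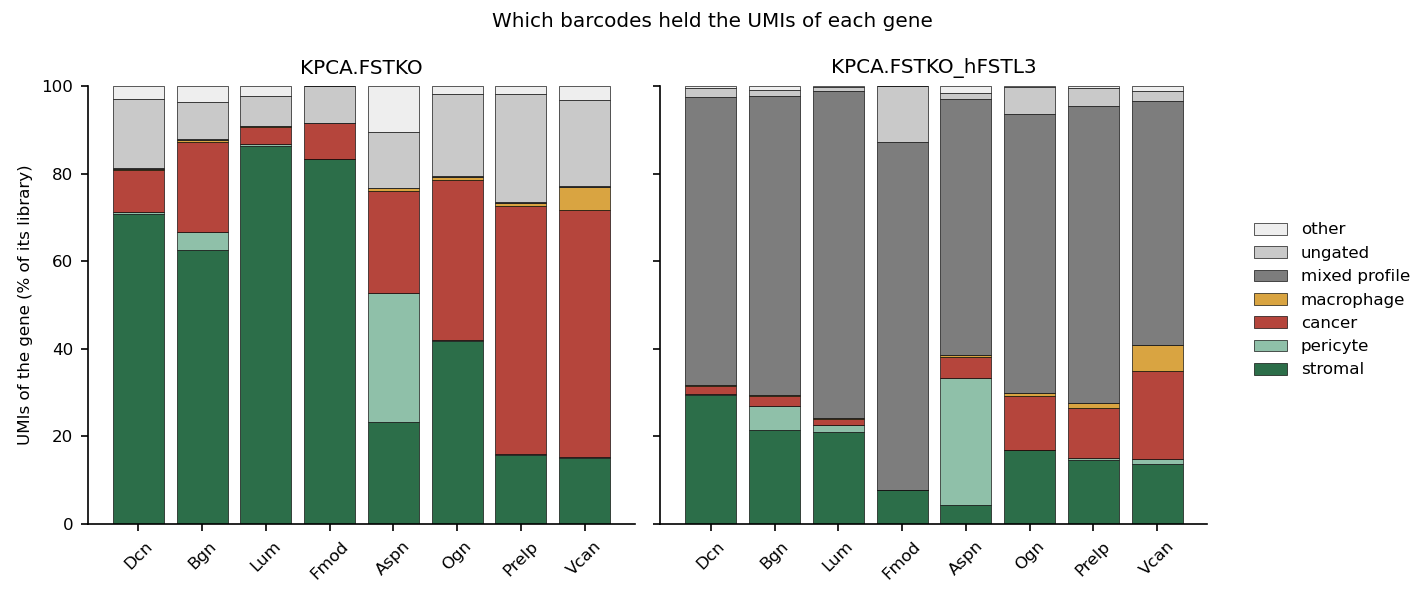
Share of each gene's UMIs (% of its library, stacked bars from 0 to 100) by class in KPCA.FSTKO (left) and KPCA.FSTKO_hFSTL3 (right). Stromal-gated cells hold 86.3% of Lum and 15.0% of Vcan UMIs in KPCA.FSTKO, and mixed-profile barcodes hold most UMIs of every gene in KPCA.FSTKO_hFSTL3.

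Between the libraries, Lum, Prelp, Vcan and Aspn were lower and Dcn was higher in the stromal-gated cells of KPCA.FSTKO_hFSTL3, beyond counting error, while the intervals of Bgn and Ogn held 1. The subtypes made up different parts of this class, with 111 of 399 cells matrix-gated and 44 myofibroblast-gated in KPCA.FSTKO, and 6 of 66 and 20 in KPCA.FSTKO_hFSTL3. Of 7 members with at least 100 UMIs, 0 were called higher in KPCA.FSTKO_hFSTL3, against 1.39% of 8501 genes, and 1 was called lower, against 2.49%. The median log2 ratio was -0.41 for the members and 0.02 for all genes. Dcn was 1.22 times (1.18 to 1.26) as high in KPCA.FSTKO_hFSTL3, Bgn 0.986 times (0.949 to 1.02) and Ogn 1.03 times (0.758 to 1.37). Lum had a ratio of 0.688 (0.602 to 0.785), but 1.31 with cells weighted equally, Prelp 0.753 (0.590 to 0.951) and Vcan 0.741 (0.663 to 0.826). Aspn, the member called lower, had 0.477 (0.266 to 0.80) from 16 UMIs against 156, but 1.82 with cell classes taken from clusters and 1.05 with cells weighted equally, while in pericyte-gated cells, its main class, it was 1.18 (0.918 to 1.5). Within subtypes the Dcn ratio was 1.40 (1.32 to 1.48) in mesothelial-gated, 1.18 (1.12 to 1.25) in fibroblast-gated and 0.786 (0.718 to 0.859) in myofibroblast-gated cells. For Bgn it was 0.915 (0.825 to 1.01), 0.786 (0.738 to 0.836) and 1.06 (0.991 to 1.13) in the same order, and 1.80 (1.64 to 1.97) in pericyte-gated cells. In KPCA.FSTKO and KPCA.FSTKO_hFSTL3 Prelp was 93.4 and 34.1 CPM in fibroblast-gated and 65.4 and 41.0 in mesothelial-gated cells. It was 44.5 and 74.3 in myofibroblast-gated and 17.6 and 54.0 in matrix-gated cells, the other way but with overlapping intervals. Vcan was 333 and 217 in fibroblast-gated but 352 and 347 in myofibroblast-gated cells.

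In cancer-gated cells Prelp alone passed the ratio of 2 between the libraries. Of 6 counted, 0 were called higher, against 4.36% of 12825 genes, and 1 lower, against 5.54%. The median log2 ratio was -0.32 for the members and 0.02 for all genes. Prelp was the member called lower, with a ratio of 0.325 (0.25 to 0.416). Vcan had 0.573 (0.524 to 0.624) and Bgn 0.638 (0.571 to 0.710), while Aspn had 1.01, Dcn 1.13 (1.00 to 1.28) and Ogn 1.70 (1.19 to 2.37). The Dcn and Bgn ratios were unstable. Without barcodes above the median acinar share they were 0.230 and 0.291, with cell classes taken from clusters 0.262 and 0.276, and without the 5% of cells with most UMIs of the gene 2.31 and 1.56. Over all alternatives that were run for them, Prelp stayed between 0.219 and 0.363 and Vcan between 0.513 and 0.639. Vcan in macrophage-gated cells had a ratio of 0.786 (0.661 to 0.930).

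**Figure D5:**
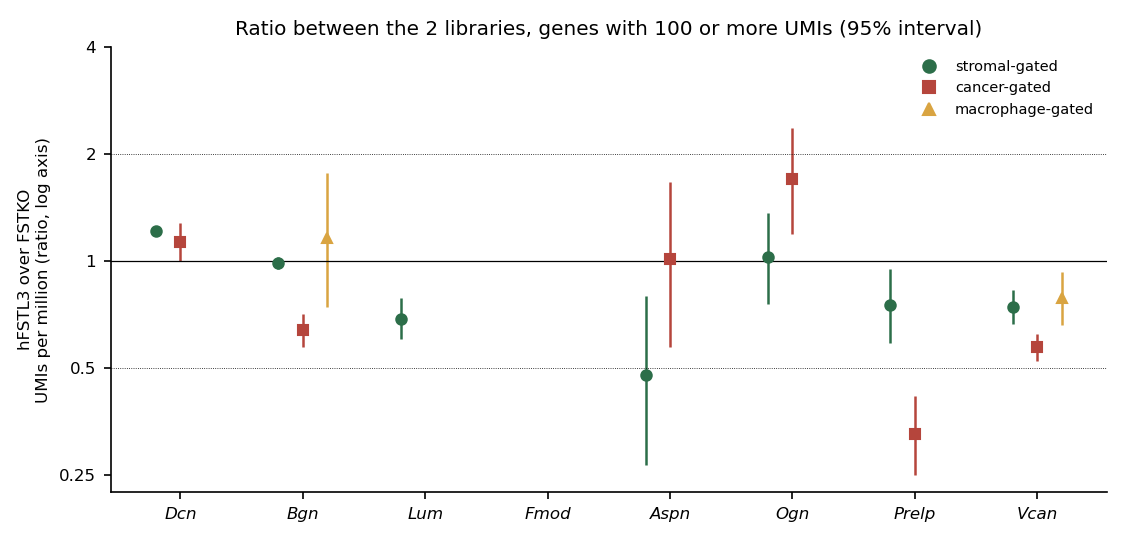
Ratio of CPM between KPCA.FSTKO_hFSTL3 and KPCA.FSTKO (log axis) for each gene in stromal-gated, cancer-gated and macrophage-gated cells with 100 or more UMIs in the 2 libraries together, with 95% intervals and dotted lines at ratios of 0.5 and 2. The ratio for Prelp in cancer-gated cells (0.325) and that for Aspn in stromal-gated cells (0.477) lie past 0.5, and Fmod has no point.

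Genes around the members were read from 8 lists. Among other small leucine-rich proteoglycans 3 of 10 could be counted in KPCA.FSTKO, and 2 were higher in stromal-gated than in cancer-gated cells, namely Tsku (2.37-fold, 1.84 to 3.02) and Ecm2 (2.96-fold, 1.77 to 4.74). Among lecticans and link proteins only Acan, the aggrecan gene, could be counted, and it went the other way from its relative Vcan, with 22.7 in cancer-gated and 0.668 in stromal-gated cells of KPCA.FSTKO. Of 14 other proteoglycans, 7 were higher and 0 lower, including perlecan (Hspg2, 2.35-fold), betaglycan (Tgfbr3, 2.83-fold) and the glypican Gpc6 (8.39-fold). In KPCA.FSTKO_hFSTL3 4 of 13 were higher and 1 was lower, with 2.58-fold, 3.21-fold and 10.4-fold for the same genes, and no gene of the first pair of lists reached 100 UMIs. All-gene shares of 14.4% in KPCA.FSTKO and 11.4% in KPCA.FSTKO_hFSTL3 are the background of the counts of higher genes. No all-gene share of lower genes is given for stromal-gated over cancer-gated cells. Counts of lower genes in any of the lists therefore have no background here.

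Of 25 counted genes that build the sugar chains, 8 were higher in the stromal-gated cells of KPCA.FSTKO, 1 was lower and 16 did not pass the ratio of 2 either way, where 14.4% of all genes were higher. Their median log2 ratio was 0.52, and 0.54 in KPCA.FSTKO_hFSTL3, beside -0.13 and -0.18 over all genes. Chst11, a chondroitin 4-O-sulfotransferase, stood 44.1-fold higher (40.4 to 48.3), Ust, a uronyl 2-O-sulfotransferase, 101-fold (80.5 to 128), and Dse, the dermatan sulfate epimerase, 4.76-fold (4.29 to 5.27). In KPCA.FSTKO_hFSTL3 7 of 19 were higher and 0 lower, with Chst11 at 70.4-fold and Ust at 67.0-fold. Among hyaluronan genes 3 of 8 were higher and 2 lower in KPCA.FSTKO, led by Tnfaip6, which encodes a hyaluronan-binding protein (100-fold, 81.5 to 124), and the hyaluronan synthases Has2 (2.46-fold) and Has1 (2.67-fold), while the synthase Has3, named here after its values were seen, was lower (0.358, 0.142 to 0.748, from 7 and 250 UMIs). In KPCA.FSTKO_hFSTL3 2 of 6 were higher and 0 lower, with Tnfaip6 at 158-fold and Has1 at 8.59-fold.

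Of the proteases that cleave versican or process matrix, 6 of 8 were higher and 0 lower in the stromal-gated cells of KPCA.FSTKO, with Bmp1 at 12.8-fold, Adamts1 at 4.46-fold and Adamts9 at 9.92-fold, and 5 of 7 higher and 1 lower in KPCA.FSTKO_hFSTL3, where these 3 had 9.0-fold, 4.58-fold and 10.4-fold. Of 9 receptors reported to bind the members, 3 were higher, including the scavenger receptor Lrp1 (4.48-fold) and Egfr (2.51-fold), and Met was lower (0.182). In KPCA.FSTKO_hFSTL3 3 of 8 were higher and 1 was lower, with Lrp1 at 2.95-fold, Egfr at 2.25-fold and P2rx7 at 2.31-fold. Of 3 fibrillar collagens that were not gate markers, Col5a2 (261-fold) and Col5a3 (32.2-fold) were higher in KPCA.FSTKO, and in KPCA.FSTKO_hFSTL3 they stood 87.3-fold and 20.3-fold higher, while Col11a1 had 0 UMIs in stromal-gated and 476 in cancer-gated cells.

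Between the libraries, the stromal-gated counts of the same lists were 0 of 14 cell surface, basement membrane and granule proteoglycans, 0 of 20 chain-building genes and 0 of 8 receptors past the ratio of 2, 2 of 6 hyaluronan genes higher, 1 of 8 proteases lower and 1 of 3 fibrillar collagens lower. Of the other small leucine-rich proteoglycans 0 of 1 passed it there and 0 of 3 in cancer-gated cells. All genes gave 1.39% higher and 2.49% lower in stromal-gated cells. In cancer-gated cells 2 of 13 of these proteoglycans were higher, 1 of 21 chain-building genes was higher and 1 lower, and 1 of 8 hyaluronan genes, 1 of 7 proteases, 1 of 9 receptors and 2 of 3 collagens were higher and the 1 lectican counted was lower, against 4.36% higher and 5.54% lower of all genes. In stromal-gated cells Tnfaip6 had a ratio of 2.73 (2.43 to 3.06) and Hmmr, a hyaluronan receptor gene, 3.34 (2.36 to 4.69), while Tll1, a relative of Bmp1, had 0.198 (0.0714 to 0.442). Col11a1 had 0 UMIs in KPCA.FSTKO_hFSTL3 against 150 in KPCA.FSTKO. In cancer-gated cells Acan (0.393, 0.315 to 0.484) and the epimerase gene Dsel (0.360) were lower in KPCA.FSTKO_hFSTL3. Srgn (3.04), Sdc3 (2.80), Chsy1 (2.05), Has2 (2.41), Adamts5 (2.11), Tlr2 (3.83), Col5a2 (3.02) and Col5a3 (2.15) were higher there. The summed level of 12 macrophage markers, all found, was also higher in these cancer-gated cells, with 121 CPM in KPCA.FSTKO and 460.4 in KPCA.FSTKO_hFSTL3, with Apoe the most abundant at 55.3 and 232. Srgn and Tlr2 are known from leukocytes, and the part of macrophage RNA in these differences was not tested.

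Likeness of pattern was described by Pearson's r of log2(level + 1) over 13 gated classes of KPCA.FSTKO, among 13888 genes, all classes sharing 1 library. Dcn was most like Calca (0.959), Col16a1 (0.957) and the gate marker Col1a1 (0.956). Bgn was most like the gate marker Col5a1 (0.968), Col5a2 (0.946) and Rarres2 (0.944), and Lum most like Lrrn2 (0.980), Lox (0.973) and Lama1 (0.970). For Aspn the nearest were Lrriq3 (0.881), the gate marker Postn (0.881) and Adra2a (0.871). Ogn was nearest to 9030624G23Rik (0.976), Myrf (0.971) and Mapk10 (0.967), and Prelp to Fzd2 (0.964), Enpp5 (0.963) and Fkbp11 (0.959). Vcan was nearest to Ifi204 (0.912), Myo7a (0.909) and Lrp1 (0.904). Between members r was 0.949 for Dcn and Lum and 0.822 for Dcn and Bgn, but 0.342 for Dcn and Vcan, 0.263 for the neighbors Aspn and Ogn, and 0.107 for Aspn and Vcan.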

How the data were processed

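The authors deposited raw UMI counts per gene and barcode for 1 droplet library per genotype, made with a 10x Genomics 3′ kit (v2 in the labels). The submitters' processing notes name Cell Ranger 3.1.0 and mm10, whereas the file headers name 7.2.0, and gene positions here are GENCODE's on GRCm38. As many barcodes were deposited as the study counts after quality control; its stated filter (mitochondrial share under 20%, more than 200 and fewer than 8000 genes) was applied again and left 6777 of 7582 and 4041 of 4244. Library totals were 168214773 and 80391504 UMIs. A cell was gated when 3 to 5 markers of a list were raised, by a rule set after the markers' distributions were seen. For cancer markers the level required was 0.5 times the pooled CPM in place of 3 times. For all gates the pooled CPM was that of KPCA.FSTKO, in both libraries. The mixed-profile lists used a share of 0.5 of the pooled CPM of each library on its own. The members and gene lists were chosen with earlier results of these data known. UMIs were summed per class and scaled to 1000000 UMIs of the class (CPM), with exact Poisson, Clopper-Pearson and conditional binomial intervals (scipy 1.17.1). Where a class has 0 UMIs, the floor is 3 UMIs over the class. Calls were also recomputed with TMM factors (edgeR 4.0.16) and Seurat 5.3.0 clusters. The clusters gave 0 myofibroblast and 0 mesothelial cells, and all 440 and 64 stromal cells fell in the fibroblast class. The clusters therefore could not check the levels of the stromal subtypes. The size rule and the intervals were run on simulated Poisson counts, the model that the intervals assume. That run held no variation between cells, so it cannot show how the intervals do with such variation. Barcodes marked as doublets by Scrublet (scanpy 1.11.5) were kept, since it marked 90 of 6777 and only 1 of 4041. Barcodes that passed the gates of more than 1 lineage (79 in KPCA.FSTKO and 20 in KPCA.FSTKO_hFSTL3) were left out of every class. A further 2054 and 523 barcodes were ungated. From each list, up to 3 genes past a ratio of 2 with most stromal UMIs are named, and per member the 3 genes most like it. A further alteration of the grafted line is not reported here.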

Additional observations from a re-analysis of the deposited data

Results flagged for a closer look

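For 3 comparisons of classes the 2 libraries lay on opposite sides of 1, with intervals that excluded 1 in each library, and the difference between the libraries was not tested. Bgn in pericyte-gated over stromal-gated cells had a ratio of 0.738 in KPCA.FSTKO and 1.35 in KPCA.FSTKO_hFSTL3, from 35 and 12 pericyte-gated cells. Against fibroblast-gated cells the same gene had 0.609 and 1.39. Prelp in fibroblast-gated over myofibroblast-gated cells had 2.10 in the first library and 0.458 in the second, the latter resting on 19 and 45 UMIs. With 1 fewer marker required of a class, the ratio of Bgn in pericyte-gated over stromal-gated cells came to 0.994 in KPCA.FSTKO.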

How the results depend on the processing

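Of 531 alternative values of 34 member ratios, 376 stayed within the 95% interval of the value reported, 153 moved beyond it, and 2 took a ratio past 0.5 to the other side of 1. Both of the last belong to Aspn in stromal-gated cells between the libraries, at 1.05 with cells weighted equally and 1.82 with Seurat clusters. Every member counted stayed above a stromal over cancer ratio of 2 under each alternative that gave a value. The number of genes called higher over cancer-gated cells was 2975 at a minimum of 20 UMIs and 2938 at a ratio of 1.5 in KPCA.FSTKO, and 1961 and 1818 in KPCA.FSTKO_hFSTL3. Between the libraries in stromal-gated cells the genes higher numbered 395, 470 and, with cells weighted equally, 191, and the genes lower 741 and 665. In cancer-gated cells they were 1367 and 1539 higher, 338 without barcodes above the median acinar share, and 1388 and 1555 lower. The member counts that follow have no all-gene share at the same settings beside them. Such counts show only how the calls moved with the setting. Members lower in stromal-gated cells numbered 2 at a minimum of 20 UMIs and without barcodes above the median acinar share. They numbered 0 with cells weighted equally, 1 more or 1 fewer marker, Seurat clusters, without the 5% of barcodes with most UMIs, with markers raised at 5 times, or mixed profiles at 5 lists. Without the top 5% the ratio of Aspn was 0.360, further past 0.5 than the value reported, but from 3 and 38 UMIs and so under the minimum of 100. Members higher in cancer-gated cells were 1 at a ratio of 1.5 and without the top 5%, and 2 with mixed profiles at 5 lists. Members lower there were 3 at a ratio of 1.5 and without barcodes above the median acinar share, 4 with Seurat clusters, and 2 with no barcode filter, markers raised at 2 times or mixed profiles at 3 lists. The causes were not tested. The 5 alternatives (2 and 5 times, 3 and 5 lists, and levels minus the macrophage level) were chosen after seeing the data, and the last gave no gene counts, nor did leaving out the top 5%. No paired analysis was possible because each genotype has 1 library. Depth limits Fmod, and counts of 0 in classes of under 20 cells say little.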
